A study of Mus musculus with 17 samples.

Results

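The 10 genes described here encode G protein and cyclic AMP signalling proteins of striatal neurons. They were taken from a named list (Gnal, Gng7, Adcy5, Pde10a, Pde1b, Rgs9, Rasd2, Ppp1r1b, Arpp21 and Arpp19), chosen with earlier results of these data known. All 10 were found among the 45147 features left after the deposited transcript rows were summed per gene. The study sequenced total RNA from mouse brain on the C57BL/6 background. Of the 17 libraries, 6 came from mice overexpressing HAR1A, the human form of a noncoding RNA gene, from a transgene, and 11 from normal mice labelled as controls. The labels name no promoter, line, age, sex or brain region, and no separate animals, so every p-value below measures the spread between these libraries, which may be technical. The level of HAR1A itself was not analysed here, so the labels were not checked against it.

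In striatal projection neurons, dopamine and adenosine receptors act through the olfactory-type stimulatory G protein alpha subunit (Gnal), paired with a gamma subunit (Gng7), on adenylyl cyclase type 5 (Adcy5), which makes cyclic AMP. Phosphodiesterases break the messenger down, RGS proteins shorten G protein signals, and protein kinase A phosphorylates small phosphatase regulators, of which DARPP-32 (Ppp1r1b) is the best known. Most of these genes are abundant in the caudate and putamen and are also transcribed, at lower levels, elsewhere in the brain.

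All 10 genes were higher in the transgene libraries. The log2 difference ran from 1.76 for Arpp21 to 4.79 for Gng7 in 9 of them and was smaller, at 0.48, in Gnal. Over all libraries 10 of 10 passed the threshold of 0.05 on the adjusted p (edgeR quasi-likelihood test, Benjamini-Hochberg over 19136 features), where 47.4% of all tested features were called, 23% higher and 24.4% lower. The median log2 difference was 1.90 for the 10 genes and -0.05 for all tested features. The values of the groups did not overlap for 9 of the 10 genes, where 9.46% of all features lay wholly higher and 5.4% wholly lower in the transgene libraries.

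All transgene libraries were run on lane 4 of a flow cell, together with 3 of the controls. Within lane 4 the same 10 genes passed in the same direction, where 25.6% of 19261 features were called and 13.6% were called higher, and all 10 groups stood apart, where 14.7% of features lay wholly higher and 10.6% wholly lower. Their median log2 difference was 2.0 there, and that of all features -0.04. Between 6 controls of lane 8 and the 3 of lane 4, 0 of the 9 genes that could be tested were called. Of 19384 features 0% were called by edgeR. In data simulated for this comparison, edgeR recovered only 27.6% of 2-fold and 1.03% of 1.5-fold changes. The lack of calls thus does not show that the lanes were alike. In that comparison DESeq2 called 1 feature, and 1543 features had an unadjusted p under 0.05, among them Adcy5 (p = 0.046) and Pde1b (p = 0.0269), both lower on lane 8. The lane groups overlapped for all 9 genes, where 1.52% of features lay wholly higher and 1.1% wholly lower on lane 8. Gng7 was too low in the controls to be tested between lanes.

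**Figure D1:**
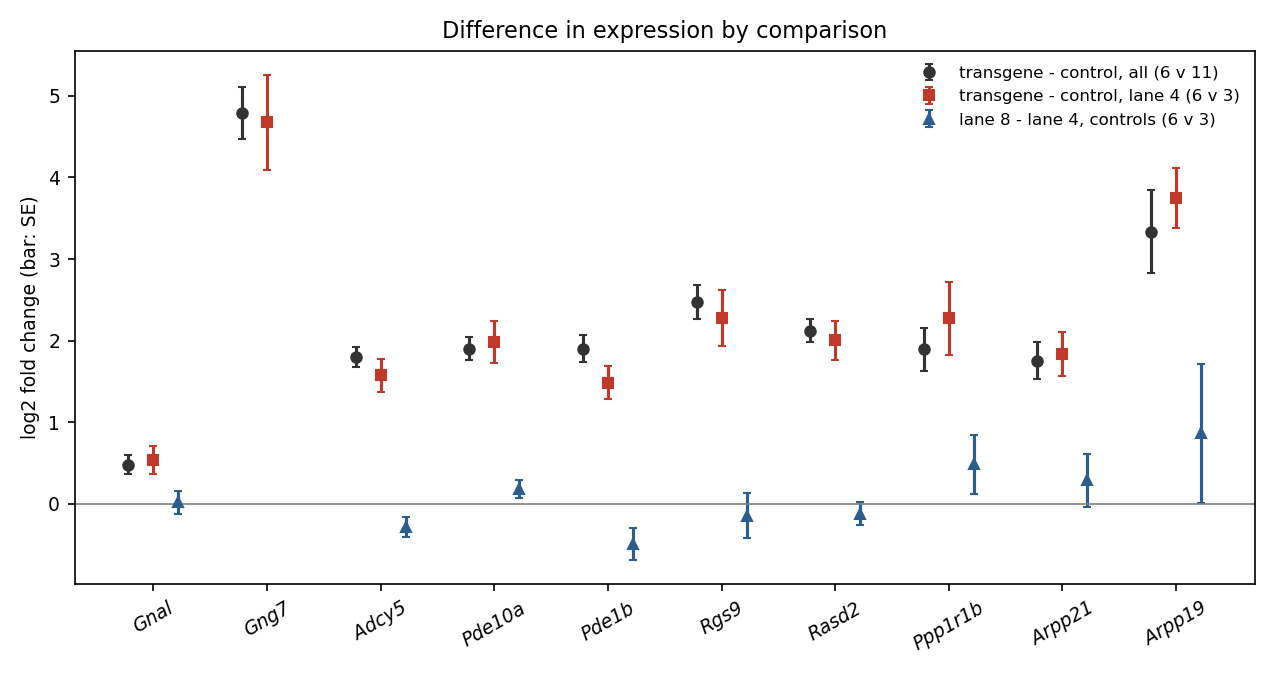
Log2 fold change (vertical axis) of each of the 10 genes in 3 comparisons, with bars for the standard error: transgene minus control over all libraries (6 against 11), the same within lane 4 (6 against 3), and lane 8 minus lane 4 among controls (6 against 3, no value for Gng7). The first pair of symbols lies above 0 for every gene, lowest for Gnal at 0.48 and 0.53, whereas the control comparison runs from -0.49 for Pde1b to 0.86 for Arpp19.

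Depth and tissue markers bear on each of these differences. Assigned counts ran from 17067407 to 22642441 per library. All 12 striatal projection neuron markers were higher in the transgene libraries (summed level 723 to 1959 CPM against 202 to 395 in the controls), and so were 7 of 8 cortical and hippocampal excitatory markers (1366 to 2451 against 266 to 1199 CPM). All 8 cerebellar markers were lower (76.1 to 731 against 177 to 4374 CPM), as were all 6 hindbrain and spinal cord markers (0 to 0.41 against 15.6 to 236 CPM). Of 6 general neuronal markers 2 were higher and 4 did not pass. Among the tested markers of other cells, 2 of 5 thalamic, 5 of 7 oligodendrocyte and 3 of 6 astrocyte genes were lower, 1 oligodendrocyte and 1 astrocyte gene and 2 of 3 microglial genes were higher, and 0 of 4 choroid plexus genes passed. Within lane 4 the striatal and cortical genes called higher numbered 10 of 12 and 7 of 8, and the cerebellar and hindbrain genes called lower 4 of 8 and 6 of 6. The striatal receptor genes Drd2 and Adora2a were also detected in every control, at 17.1 ± 6.78 and 5.81 ± 0.93 CPM (SD, n = 11), against 76.9 ± 22.2 and 128 ± 54.0 CPM in the transgene libraries (n = 6). Drd1, with only 50 unshared bases, stood at 0.11 ± 0.18 and 2.44 ± 0.94 CPM. The part of these marker differences in the results was not tested, and in bulk tissue a smaller share of a cell type and less RNA per cell cannot be told apart. Libraries were otherwise set apart by the choroid plexus gene Ttr, which stood at 2.78 CPM in transgene 2, 3.43 in transgene 6 and 45.6 in control 3, and at 350 or more in the other 14.

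Several members have transcripts that overlap one another, and each deposited file ends with a separate row of ambiguous reads, taken here as those that fell on more than 1 feature, since the counting program is not stated. The 4007 deposited rows with XLOC names and 125 Ensembl rows not matched to GENCODE M21 were not compared by position. Bases that no other matched row shares tell the matched transcripts apart and are called unshared here. They need not be the only ones counted: Arpp19-210 has 0 unshared bases and held 33 counts over the transgene libraries and 87 over the controls. Rows differ in how many unshared bases they have, so a row's share of its gene's reads is not its share of the transcripts. Unshared coding stretches are shown for Pde10a and Rgs9, whose rows behaved differently, and for DARPP-32. Transcripts are from GENCODE M21 on mm10, letters run 5′ to 3′ on the coding strand, and capitals mark the start codon (ATG) or stop codon (TGA, TAA). The Pde10a stretches lie at chr17:8802079-8802145 and chr17:8527019-8527115 on the plus strand, the Rgs9 stretches at chr11:109235843-109235899 and chr11:109258655-109258699 on the minus strand, and that of Ppp1r1b at chr11:98349094-98349174 on the plus strand.
Pde10a-202: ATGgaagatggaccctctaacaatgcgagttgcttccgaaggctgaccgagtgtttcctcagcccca
Pde10a-208: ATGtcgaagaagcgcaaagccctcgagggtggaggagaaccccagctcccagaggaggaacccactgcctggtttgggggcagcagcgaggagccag
Rgs9-204: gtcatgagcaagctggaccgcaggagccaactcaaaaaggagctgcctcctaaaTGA
Rgs9-203: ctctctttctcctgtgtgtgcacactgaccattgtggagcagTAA
Ppp1r1b-201: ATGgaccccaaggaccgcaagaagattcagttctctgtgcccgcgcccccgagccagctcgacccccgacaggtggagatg
The Pde10a rows thus begin their proteins at different start codons, and the Rgs9 rows end theirs at different stop codons.

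Among the G protein subunits, Gnal (ENSMUSG00000024524) gave the smallest difference of the 10. Its level in the controls was 27.8 CPM at the lowest, 30.7 at the median and 41.9 at the highest, and in the transgene libraries 36.1, 43.7 and 58.1. The groups overlapped: 3 of 6 transgene libraries lay above every control, and 8 of 11 controls lay below every transgene library. The log2 difference was 0.48 ± 0.12 (SE; edgeR adjusted p = 0.00233) over all libraries and 0.53 ± 0.17 (edgeR adjusted p = 0.0405) within lane 4. Without transgene 2, transgene 6 and control 3, the libraries nearly lacking Ttr, it was 0.29 and no longer passed (edgeR adjusted p = 0.0565, the highest of its alternatives over all libraries). Within lane 4 the call was also lost when transgene 2, 4 or 6 or control 8 or 11 was left out, with log2 differences of 0.45 to 0.53 (edgeR adjusted p from 0.0647 to 0.144), and when transgene 2 and 6 were left out together (0.34, edgeR adjusted p = 0.111).

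The small difference in Gnal was the sum of 2 rows that moved in opposite directions. Gnal-201, the row with more reads, fell from 27.6 ± 6.24 CPM (SD, n = 11) in the controls to 17.1 ± 2.22 (n = 6), a log2 difference of -0.67 ± 0.14 (SE; edgeR adjusted p = 0.000834 over 23353 rows). Gnal-202 rose from 5.56 ± 2.32 to 29.2 ± 10.2 CPM, a log2 difference of 2.43 ± 0.29 (edgeR adjusted p = 1.78e-06). For Gnal-202 the highest control stood at 9.49 CPM and the lowest transgene library at 15.0, so the groups were apart. For Gnal-201 the controls reached down to 18.3 and the transgene libraries up to 21.1 CPM, so they overlapped. Gnal-202 made up 17.4% ± 8.41 of the gene's assigned reads in the controls against 61.6% ± 11.1 in the transgene libraries. Gnal-201 and Gnal-202 have 2363 and 949 unshared bases, of which 346 and 145 are coding. In lane 4 the values were -0.73 ± 0.15 and 2.93 ± 0.47 (edgeR adjusted p = 0.00569 and 0.00126). Gnal overlaps the neighbouring gene Mppe1, whose reads cannot be told from its own without a stated strand setting.

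**Figure D2:**
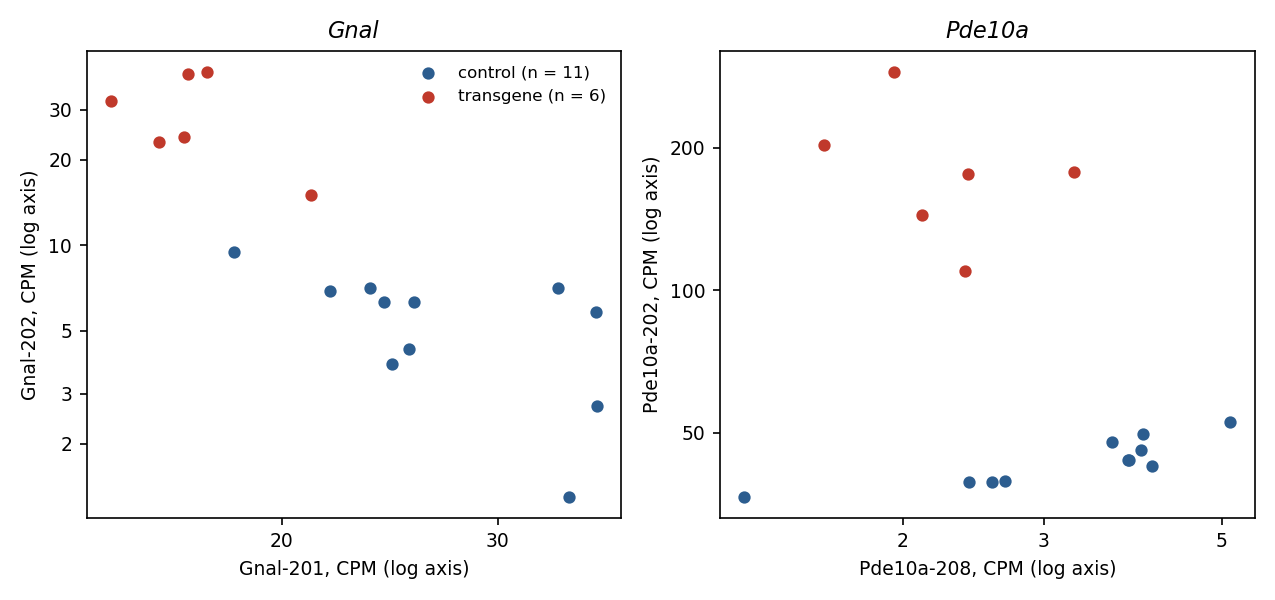
Level in CPM (log axes) of 2 transcript rows of Gnal (left, Gnal-201 across and Gnal-202 up) and of Pde10a (right, Pde10a-208 across and Pde10a-202 up), with 1 point per library. Transgene points (n = 6) lie above every control (n = 11) for Gnal-202, from 15.0 to 40.7, and for Pde10a-202, from 110 to 289, and toward the left of the controls for Gnal-201.

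Gng7 (ENSMUSG00000048240, chr10:80948624-81014945) encodes the gamma subunit that partners the Gnal product in striatum. It had the fewest assigned counts of the 10 in the controls, 41 over all 11 libraries against 621 in the 6 transgene libraries. Control levels ran from 0.050 through a median of 0.13 to 0.41 CPM, and transgene levels from 2.18 through 5.57 to 7.39 CPM. The lowest transgene library thus lay 5.28 times above the highest control, the widest gap of the 10. In log2 units the difference was 4.79 ± 0.32 (SE; edgeR adjusted p = 1.30e-08), and 4.68 ± 0.58 within lane 4 (edgeR adjusted p = 0.000347). Nearly all of it lay in Gng7-205, a row with 146 unshared bases, all in the 5′ untranslated region, with 14 counts over the controls and 595 over the transgene libraries. Gng7-204 and Gng7-203 held 14 and 12 counts over the transgene libraries and 16 and 11 over the controls. The 5 rows of the gene have 179 unshared bases in all, with 0 of them coding. These counts thus say little of the level of the whole gene.

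Adcy5 (ENSMUSG00000022840, chr16:35154877-35305738), the cyclase, has 1 deposited row, and all 7008 bases of its transcript are unshared. Its controls held 171, 233 and 307 CPM (lowest, median, highest), and transgene libraries 571, 831 and 1141 CPM. Every transgene library lay above every control. Transgene minus control came to a log2 difference of 1.80 ± 0.12 (SE; edgeR adjusted p = 1.30e-08) and 1.58 ± 0.20 within lane 4 (edgeR adjusted p = 0.000382).

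Pde10a (ENSMUSG00000023868, chr17:8525372-8986648) and Pde1b (ENSMUSG00000022489, chr15:103503034-103530052) encode phosphodiesterases that break down cyclic AMP and cyclic GMP, with that of Pde1b activated by calcium and calmodulin. Pde10a stood at 40.9, 51.2 and 62.9 CPM in the controls against 115, 185 and 295 in the transgene libraries. Its groups were apart, and its controls were the most even of the 10, with a coefficient of variation of 13.1%. The fitted log2 difference was 1.90 ± 0.14 (SE; edgeR adjusted p = 3.18e-08).

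Of the 4 Pde10a rows that could be tested, only Pde10a-202 rose, by 2.10 ± 0.14 (SE; edgeR adjusted p = 8.35e-09), from 43.7 ± 4.95 to 183 ± 61.2 CPM (SD). Pde10a-208, which begins at the other start codon shown above, had 3.40 ± 1.06 CPM in the controls against 2.29 ± 0.57 in the transgene libraries (log2 difference -0.54, edgeR adjusted p = 0.0599). The rows Pde10a-204 and Pde10a-207, the latter annotated as a retained intron, differed by -0.15 and 0.09 and did not pass. The share of Pde10a-202 among the gene's assigned reads was 86.4% ± 2.05 in the controls against 96.6% ± 1.32 in the transgene libraries. Pde10a-202 has 2813 unshared bases, against 315 for Pde10a-208, 78 for Pde10a-204 and 3017 for Pde10a-207. These shares of reads are thus not proportions of transcripts.

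Pde1b had 26.7, 40.2 and 66.1 CPM in the controls against 129, 156 and 195 CPM in the transgene libraries, with no overlap. Its log2 difference was 1.90 ± 0.16 (SE; edgeR adjusted p = 1.32e-07) over all libraries and 1.49 ± 0.20 within lane 4 (edgeR adjusted p = 0.000534). The 2 highest controls, 7 and 11, were both on lane 4. Pde1b-201 carried 99.4% of its reads. Pde1b-205, which has a start codon of its own, held 71 counts over the transgene libraries and 81 over the controls and was tested only within lane 4, where it did not pass (log2 difference 0.99, edgeR adjusted p = 0.172).

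Rgs9 (ENSMUSG00000020599, chr11:109225355-109298129) encodes a protein that speeds the switching-off of G proteins, with a long splice form typical of striatum and a short one typical of retina. Control levels were 2.67, 3.95 and 6.47 CPM and transgene levels 15.5, 19.5 and 37.7 CPM, without overlap. The log2 difference was 2.47 ± 0.21 (SE; edgeR adjusted p = 1.23e-07). All 4 rows rose, but unequally. Rgs9-204, which ends in the TGA shown above, rose by 1.75 ± 0.23, and Rgs9-203, which ends in the TAA, by 3.21 ± 0.25 (edgeR adjusted p = 5.42e-06 and 4.34e-08). Rgs9-201, which has the longest coding sequence (2028 bases), rose by 2.83 ± 0.24 and Rgs9-202 by 3.55 ± 0.29. The share of Rgs9-204 among the gene's assigned reads was 57.2% ± 6.07 in the controls against 34.0% ± 3.04 in the transgene libraries. The lowest control, at 48.1%, did not overlap the highest transgene library, at 38.5%. Rgs9-204 and Rgs9-203 have 843 and 2707 unshared bases, against 29 for Rgs9-201 and 95 for Rgs9-202. These shares thus do not show which transcript was the most abundant.

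Rasd2 (ENSMUSG00000034472, chr8:75213944-75224113) encodes Rhes, a small Ras-like GTPase rich in striatum that lowers receptor-driven cyclic AMP signalling. Controls held 56.8, 70.3 and 90.3 CPM and transgene libraries 201, 321 and 468 CPM. The groups were apart by a factor of 2.23 between the nearest libraries. On the log2 scale the difference was 2.12 ± 0.14 (SE; edgeR adjusted p = 1.19e-08) and 2.0 ± 0.23 within lane 4 (edgeR adjusted p = 0.000247). Of its reads 99.9% fell on Rasd2-202.

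Ppp1r1b (ENSMUSG00000061718, chr11:98348404-98357796) encodes DARPP-32, which inhibits protein phosphatase 1 once protein kinase A has phosphorylated it. Controls held 74.4, 247 and 381 CPM, and transgene libraries 433, 836 and 1233 CPM. The groups were apart by only 1.14 times, between transgene 1 and control 4. Control 7 was the lowest library, although it was the highest control for Adcy5 and Pde1b. The log2 difference was 1.89 ± 0.26 (SE; edgeR adjusted p = 1.20e-05) and 2.27 ± 0.45 within lane 4 (edgeR adjusted p = 0.00409). Its row Ppp1r1b-206, whose unshared bases are untranslated, had 1.01 ± 0.54 CPM in the controls against 0.87 ± 0.23 in the transgene libraries and did not pass. Exons of Ppp1r1b overlap those of 1700003D09Rik.

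Arpp21 (ENSMUSG00000032503, chr9:112065091-112235018) encodes a phosphoprotein that binds calmodulin in its short form and RNA in its long form. Controls held 6.87, 16.3 and 29.4 CPM and transgene libraries 45.0, 58.8 and 75.5 CPM, without overlap. The fitted log2 difference was 1.76 ± 0.23 (SE; edgeR adjusted p = 6.36e-06). Rows coding for both forms rose. Arpp21-231 and Arpp21-230, each with a coding sequence of 267 bases, rose by 2.21 ± 0.31 and 3.53 ± 0.43, and Arpp21-223 and Arpp21-202, with 2424 and 2430 coding bases, by 1.52 ± 0.21 and 3.09 ± 0.30. Arpp21-223 held most of the gene's assigned reads, 75.0% ± 5.96 in the controls against 60.8% ± 5.82 in the transgene libraries. It has 518 unshared bases, against 94, 41 and 42 for Arpp21-231, Arpp21-230 and Arpp21-202. Its share thus does not show that it was the most abundant transcript. Arpp21-217 did not pass (log2 difference 0.41, edgeR adjusted p = 0.427). The gene overlaps 2900079G21Rik.

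Arpp19 (ENSMUSG00000007656, chr9:75037614-75060313) encodes a phosphoprotein that inhibits protein phosphatase 2A. It varied most among the controls, from 1.06 through a median of 3.13 to 26.3 CPM, a coefficient of variation of 127%. The highest value was that of control 3, and the other 10 controls stayed at or below 8.02 CPM. Transgene libraries held 34.2, 49.7 and 82.9 CPM, all above control 3. Transgene minus control came to a log2 difference of 3.34 ± 0.51 (SE; edgeR adjusted p = 3.49e-05) and 3.75 ± 0.37 within lane 4 (edgeR adjusted p = 9.93e-05), a comparison that does not hold control 3.

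The difference in Arpp19 lay in Arpp19-203, a row whose 182 unshared bases all lie in the 5′ untranslated region. It rose from 4.20 ± 7.11 CPM (SD, n = 11) to 54.6 ± 19.7 (n = 6), a log2 difference of 3.78 ± 0.71 (SE; edgeR adjusted p = 0.000253). Arpp19-201 rose by 0.72 ± 0.20 over all libraries (edgeR adjusted p = 0.00687) but did not pass within lane 4 (0.40, edgeR adjusted p = 0.382). Arpp19-203 took 96.3% ± 1.20 of the gene's assigned reads in the transgene libraries, and between 5.71% and 93.8% in the controls. Arpp19-201 has 25 unshared bases. The untested rows held 120 counts or fewer each. None of the 324 unshared bases of the gene are coding. The counts of Arpp19 thus say little of the level of the whole gene.

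**Figure D3:**
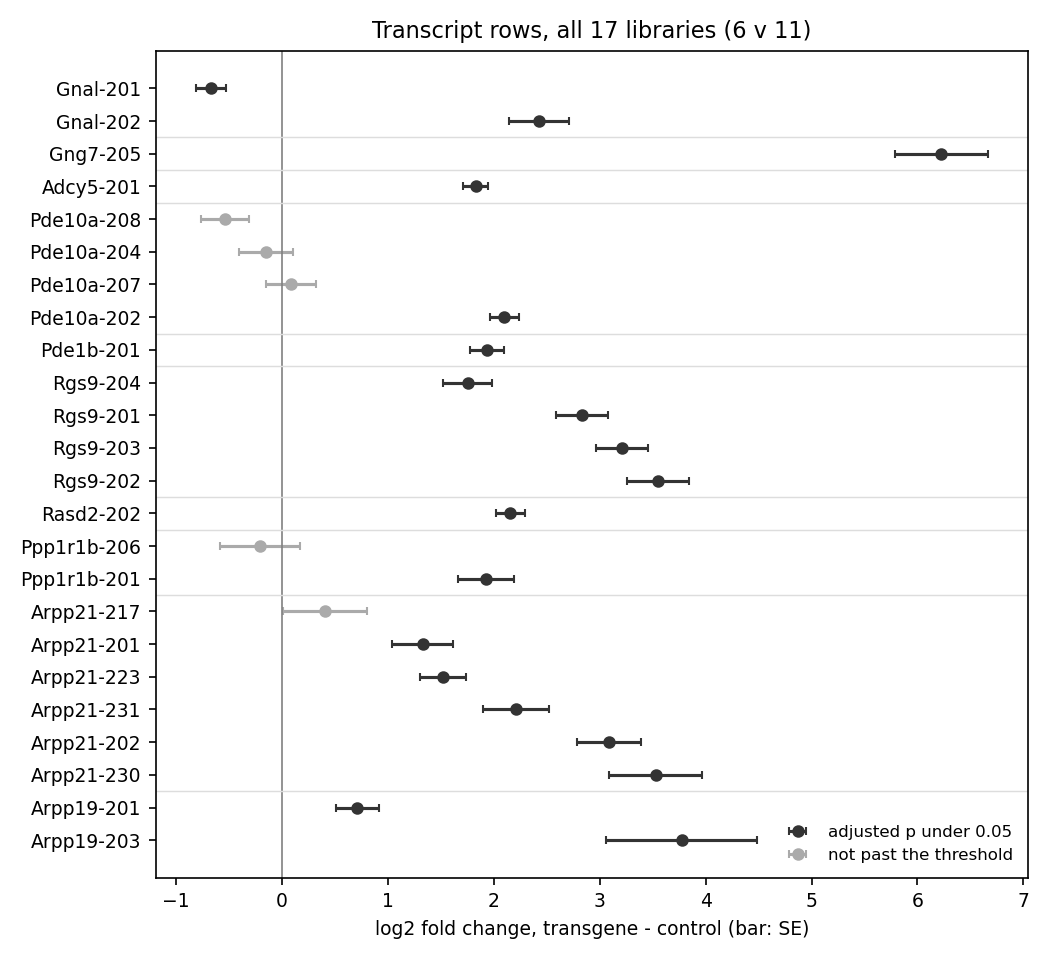
Log2 fold change (horizontal axis, transgene minus control, bars for the standard error) of the 24 transcript rows of the 10 genes that passed the expression filter, over 6 transgene and 11 control libraries. Dark points passed an adjusted p of 0.05: 18 lie to the right of 0 and only Gnal-201, at -0.67, to the left, with the 5 rows that did not pass in grey.

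In all, the 10 genes had 46 deposited rows, of which 37 held reads and 24 passed the expression filter. Of these 18 were higher, 1 was lower and 5 did not pass, where 44.8% of all tested rows were called, 23.7% higher and 21.1% lower. Whether the rows of a gene differed from each other was tested for the 6 members with several tested rows (edgeR diffSpliceDGE, an F test per gene, added after the data were seen). All 6 passed over all libraries, where 23.5% of 3494 genes and 5.69% of their single rows passed: Pde10a (adjusted p = 7.56e-17), Gnal (3.12e-09), Arpp21 (6.74e-06), Rgs9 (0.000203), Ppp1r1b (0.00289) and Arpp19 (0.0398). Within lane 4, where 9.78% of 3496 genes and 2.03% of their single rows passed, Pde10a, Gnal, Arpp19 and Arpp21 did, and Rgs9 (adjusted p = 0.0749), Ppp1r1b (0.197) and Pde1b (0.703) did not.

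Levels were set side by side between genes per length, as CPM per 1000 unshared bases. The measure is rough, since reads were not all confined to unshared bases. Rgs9-201, for example, held 4.62 CPM in the transgene libraries on 29 unshared bases, and Rgs9-203 held 9.33 CPM on 2707. In the transgene libraries Ppp1r1b led at 697 ± 242 (SD, n = 6), followed by Arpp19 at 175 ± 61.0, Pde1b at 161 ± 25.1, Rasd2 at 142 ± 40.2 and Adcy5 at 119 ± 27.8, of which each lay within 1 SD of the next. Gng7 (29.4 ± 11.6), Pde10a (27.9 ± 8.97) and Arpp21 (23.0 ± 4.23) were likewise not separated, and Gnal (14.0 ± 2.82) and Rgs9 (6.51 ± 2.51) came last. In the controls Ppp1r1b also led, at 188 ± 71.8, and Gng7 (1.04 ± 0.70) and Rgs9 (1.17 ± 0.35) were lowest. Arpp19 and Gng7 have 324 and 179 unshared bases, so their places in this order are the least sure. The places of other genes with several rows also depend on which of their bases are unshared. The order need not be that of transcript levels.

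**Figure D4:**
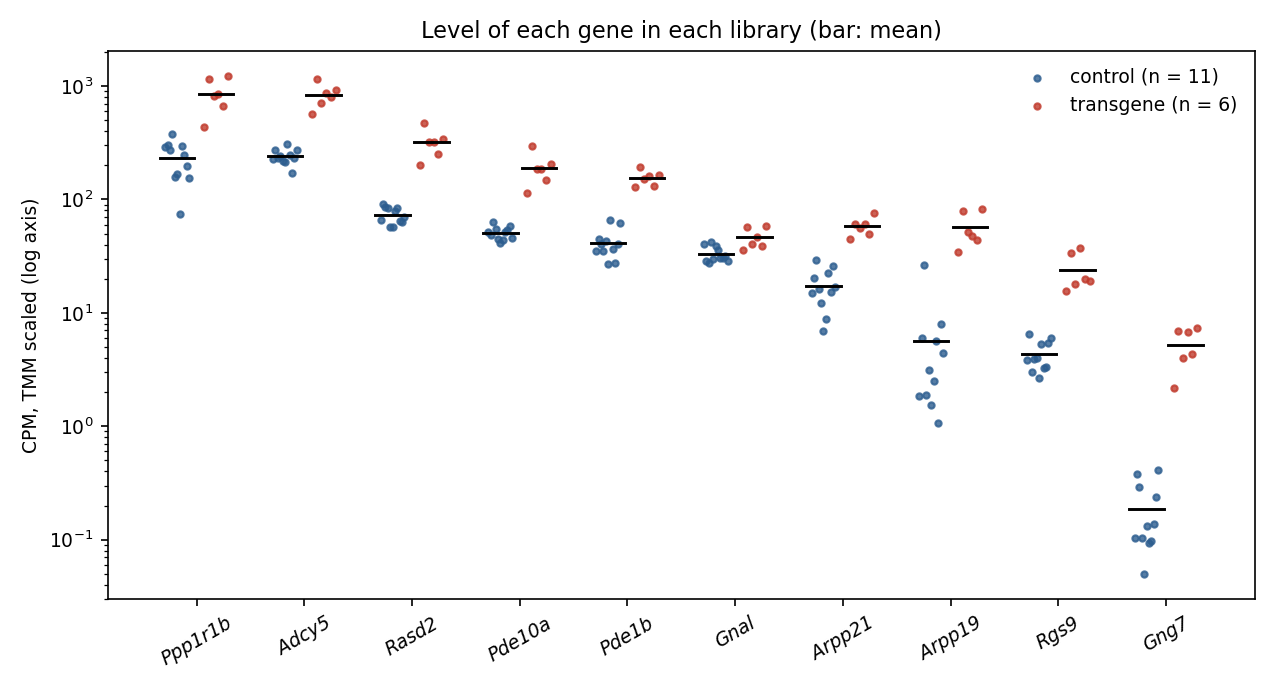
Level in CPM (log axis, scaled by TMM) of each of the 10 genes in each library, with 11 controls and 6 transgene libraries and a bar for the group mean, ordered by mean level. The groups are apart for every gene but Gnal, and the controls of Arpp19 reach from 1.06 to 26.3 CPM.

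Within the transgene group the 10 genes ordered the libraries much alike. Transgene 1 was the lowest of the 6 for 10 of 10 genes. Transgene 2 was among the highest pair for 10 genes and transgene 6 for 9, and these are the libraries with almost no Ttr. The ratio of the highest to the lowest transgene library ran from 1.51 for Pde1b to 3.39 for Gng7. Transgene 1 also had the lowest sum of striatal markers of its group (723 CPM) and the highest sum of thalamic markers (449 CPM, against 120 in transgene 6). The part of these differences in the order was not tested.

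The controls showed no single order. Control 6, the library of the other flow cell, was the lowest of the 11 for 5 genes. Control 3 was the highest for Pde10a, Arpp21 and Arpp19 and the lowest for Gnal. Control 7 was the highest for Adcy5 and Pde1b and the lowest for Ppp1r1b. It had the highest striatal marker sum of the controls (395 CPM), the lowest cortical sum (266 CPM) and the lowest cerebellar sum (177 CPM). Control 3, the highest in Arpp19, was also the control highest in Tbr1, a gene of cortical glutamatergic neurons, at 77.5 CPM.

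**Figure D5:**
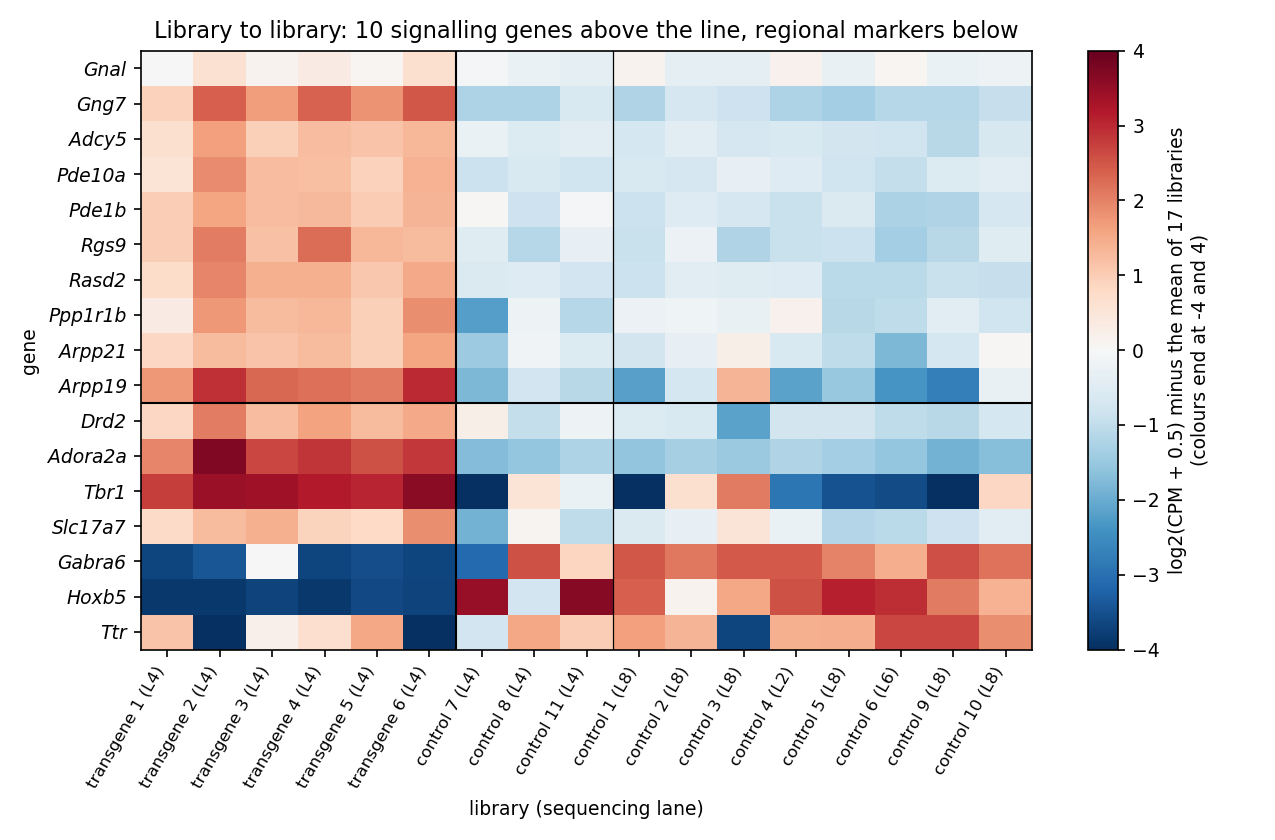
Colours show log2(CPM + 0.5) minus the mean of the 17 libraries, with 1 column per library and its sequencing lane. Rows above the line are the 10 genes. Those below it are 7 marker genes of cell types or regions, the striatal Drd2 and Adora2a among them. The 6 transgene columns on the left are red for most of the 10 genes, palest for transgene 1, and Ppp1r1b, Arpp21 and Arpp19 are bluer in control 7 than Adcy5 and Pde1b.

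Likeness of levels over the 17 libraries was measured as the root mean square difference of centred log2 CPM. Pde10a and Rasd2 were each other's nearest gene, at 0.22, and Adcy5 and Pde1b lay 0.23 apart. Rgs9 was nearer to Pde1b (0.39) than to all but 1 other gene. With the 10 genes themselves left out, 11130 candidates remained. Among these, Gng7 was nearest to the adenosine receptor gene Adora2a (0.49), and Rgs9 to Gpr83 (0.35), followed by the dopamine D2 receptor gene Drd2 (0.40). Pde10a and Rasd2 shared Pde7b (0.23 and 0.24) and Smpd3 (0.23 and 0.25), and Adcy5 and Pde1b shared Inf2 (0.16 and 0.19). Ppp1r1b was nearest to Sowaha (0.35) and to Slc17a7 (0.35), a vesicular glutamate transporter gene on the list of cortical and hippocampal markers. Arpp19 was nearest to Stx1a (0.37) and Camk2a (0.46). Arpp21 was nearest to Plppr4 (0.20) and Celf3 (0.23), and Gnal to 1700037H04Rik (0.15) and Thop1 (0.17).

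Among members called higher, the promoters shown here differed in base composition. They are shown for 3 members as the 250 bases before the start in RefSeq on GRCm38.p6, 5′ to 3′, with every CG dinucleotide in capitals: Rasd2 at chr8:75213694-75213943 on the plus strand, Pde10a (the start nearest Pde10a-202) at chr17:8801495-8801744 on the plus strand, and Arpp21 (the start nearest Arpp21-231) at chr9:112187927-112188176 on the minus strand.
Rasd2: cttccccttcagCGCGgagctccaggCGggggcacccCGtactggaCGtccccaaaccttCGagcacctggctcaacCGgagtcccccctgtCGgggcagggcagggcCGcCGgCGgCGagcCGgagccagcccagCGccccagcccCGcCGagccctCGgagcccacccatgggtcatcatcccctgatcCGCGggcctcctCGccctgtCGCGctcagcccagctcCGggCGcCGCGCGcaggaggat
Pde10a-202: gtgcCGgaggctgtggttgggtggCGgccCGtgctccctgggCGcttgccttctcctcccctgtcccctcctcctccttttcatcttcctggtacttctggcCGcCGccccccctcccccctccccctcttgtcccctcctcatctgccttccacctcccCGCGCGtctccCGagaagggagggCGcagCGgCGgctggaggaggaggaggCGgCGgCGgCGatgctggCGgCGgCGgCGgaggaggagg
Arpp21-231: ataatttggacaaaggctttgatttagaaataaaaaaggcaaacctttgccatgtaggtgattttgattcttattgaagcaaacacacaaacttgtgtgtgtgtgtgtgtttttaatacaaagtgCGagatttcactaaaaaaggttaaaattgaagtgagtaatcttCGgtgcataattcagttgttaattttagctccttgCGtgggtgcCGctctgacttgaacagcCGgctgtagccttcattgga
These stretches hold 27, 21 and 5 CG dinucleotides, and 91.4%, 83.7% and 44.4% of all RefSeq stretches of that length hold fewer. RefSeq promoters of 300 bases, 21 in number, were examined for 8 of the 10 genes, but not for Gnal or Ppp1r1b. The cyclic AMP response element TGACGTCA was found in 0 of the 21 on either strand, and in 1.79% of 32851 promoters of the same length. The shorter motif TGACG, which the full element contains, was found on either strand in 4 of the 21 and in 20.8% of all promoters. Those 4 belong to 2 genes, Arpp21 and Gng7. Several of the 21 overlap, and the promoters nearest Arpp21-210 and Arpp21-217 share the same motif site.

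The closest relatives of the members moved less uniformly. Of 17 related genes tested, 11 were higher and 1 was lower over all libraries, and 6 and 1 within lane 4. Gnas, the widespread stimulatory alpha subunit, gave -0.29 ± 0.20 (SE; edgeR adjusted p = 0.262), and Adcy6, the cyclase nearest to Adcy5, 0.15 ± 0.07 (edgeR adjusted p = 0.0783). Pde1a and Pde2a rose by 2.93 ± 0.45 and 2.35 ± 0.35, whereas Pde1c fell by 1.64 on the log2 scale (edgeR adjusted p = 4.73e-08). Ppp1r1a, the relative of DARPP-32, rose by 1.98 ± 0.22, R3hdm1, the relative of Arpp21, by 1.21 ± 0.14, and Rasd1 by 0.90 ± 0.22. Ensa, the relative of Arpp19, gave -0.17 ± 0.08 (edgeR adjusted p = 0.0923). Whether a member differed from its relative was not tested.

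The other genes of the pathway were counted on lists chosen with earlier results of these data known. Over all features 23% were called higher and 24.4% lower. Because of that choice, the counts below do not test for an excess. Of 14 tested striatal receptor genes 10 were higher and 0 lower, led by Gpr6 (5.03 ± 0.49) and Adora2a (4.46 ± 0.18). Of 24 other G protein subunits 12 were higher, led by Gng4 (1.31 ± 0.29) and Gng2 (1.01 ± 0.13), and 6 lower, led by Gnb3 (-1.68 ± 0.57) and Gng13 (-1.51 ± 0.28). Of 7 other cyclases 3 were higher, led by Adcy2 (1.28 ± 0.13), and 2 lower, Adcy7 (-0.78 ± 0.30) and Adcy8 (-0.56 ± 0.19). Of 15 other phosphodiesterases 6 were higher and 5 lower, with Pde5a (-1.65 ± 0.29) beside Pde1c.

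Of 15 genes of protein kinase A and its anchors 10 were higher, led by the inhibitor Pkig (1.37 ± 0.16) and the regulatory subunit Prkar2b (1.27 ± 0.19), and 2 lower, the anchor Akap12 (-1.98 ± 0.25) and Pkib (-1.58 ± 0.31). Of 18 RGS proteins and partners 11 were higher, led by Rgs14 (3.40 ± 0.64) and Rgs4 (2.06 ± 0.23), and 3 lower, led by Rgs8 (-2.15 ± 0.39). Of 23 phosphatase genes and DARPP-32 partners 13 were higher, among them Cdk5r1, an activator of the kinase that phosphorylates DARPP-32 (1.43 ± 0.14), and 2 lower, Ppp3cb (-0.57 ± 0.14) and Ppp1cc (-0.39 ± 0.12). Of 14 cyclic AMP effectors and targets 4 were higher, led by Rapgef4 (1.62 ± 0.15), and 4 lower, led by Hcn2 (-0.70 ± 0.21). Of the genes named from these lists, Gng4, Gnb3, Gng13, Adcy7, Pde5a, Pkib, Rgs8 and Ppp1cc did not pass within lane 4 (edgeR adjusted p from 0.0706 to 0.549). The medians of these lists ran from -0.12 for the effectors to 1.73 for the receptors, where that of the 10 genes was 1.90.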

How the data were processed

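The authors deposited raw counts per transcript, 68517 rows for each of 17 libraries, with reads placed on mm10 per the submitters' processing notes. For the aligner, counter, strand setting and gene models nothing is stated in the sources. The 5 closing rows that name no feature were left out of library sizes and tests. One of them counts ambiguous reads, taken as those on several features, so counts of genes with overlapping transcripts may be too low. Transcript rows were matched to GENCODE M21 (64380 of 64505 Ensembl rows) and summed to 45147 features.

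For genes and for rows, the quasi-likelihood F test of edgeR 4.0.16 in R 4.3.3 was run after TMM scaling and filterByExpr. P-values were adjusted by Benjamini-Hochberg over all tested features, with a threshold of 0.05. Standard errors were derived from the F statistic. The script was tested on simulated data. Of the calls there, 5.98% were false over all libraries, 11.6% (of 43 calls) within lane 4 and 6.67% between control lanes. In the same order, 71.4%, 34.4% and 27.6% of 2-fold changes were recovered. For 1.5-fold changes the shares were 40.8%, 6.12% and 1.03%. Transgene libraries were compared with controls overall and within lane 4, and controls of lane 8 with those of lane 4. Alternatives were DESeq2 1.42.0, limma-voom 3.58.1, other scaling and filters, lane as a factor, the largest row per gene, and libraries left out. The libraries are numbered in the order of deposition within a group. Named genes were all 10 members, their tested rows and relatives, the 2 largest rises and 2 largest falls called in each pathway list, fixed markers, and for each member the 3 nearest non-member genes by level. Members and lists were chosen with earlier results of these data known. One gene that this rule names is not reported here.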

Additional observations from a re-analysis of the deposited data

Results flagged for a closer look

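One of 20 groups of libraries examined held a value far from the others, and chance flags about 1 in 20 groups. Among the 6 control libraries of lane 8, Gnal was highest in control 1, at 40.7 CPM, where the nearest other library held 32.0 CPM. Control 4, from another lane, held 41.9 CPM.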

How the results depend on the processing

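The 10 genes kept their direction and passed under other scaling, without a filter, under DESeq2 and limma-voom, with sequencing lane as a model term and without any single library, except Gnal within lane 4, as given with its values. Counting only the largest row per gene, 1 member was called lower in both comparisons, Gnal at -0.67 over all libraries and -0.72 in lane 4, since that row is Gnal-201. Without transgene 2, transgene 6 and control 3, an alternative chosen after seeing the data, 9 members were called. There 7407 of 19723 tested features were called, 3956 of them higher. Over all features 5887 were called with that lane and flow cell term, against 9078 without it, and 3238 in lane 4 without transgene 2 and 6, against 4936. Of the rows, 6576 were called with that term and 5618 in lane 4, against 10470, and Ppp1r1b-206 gave 0.47 and 0.42. The causes were not tested. Scaling by library size only moved the median of all features from -0.05 to -0.16 and the share of calls that were higher from 48.6% to 35.6%. Between control lanes DESeq2 called 1 feature, and leaving out 1 control gave 0 to 88 (without control 8). There Gnal ranged from -0.0836 to 0.0939, Arpp19 from -0.0467 to 1.13, Arpp21 from -0.0172 to 0.61 and Rgs9 from -0.37 to 0.0402. No paired analysis was possible because the labels give no replicate numbers. Gng7 is limited most by its low counts, 41 over all controls, on 179 unshared bases.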
